A study of Caenorhabditis elegans with 2 samples.

Results

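Genes of the nematode Caenorhabditis elegans that encode Pax or Pax-like proteins were examined for regions bound by NPAX-4, the product of one of them. They are npax-1, npax-2, npax-3, npax-4, pax-1, pax-2, pax-3, vab-3, egl-38 and eyg-1, taken by name, and they make up 10 of 19973 nuclear protein-coding genes in the annotation. For each gene, every deposited region was collected whose summit (the base of highest signal) lay inside the gene or within 5 kb of its 5′ end. None of the 10 had a region in the thresholded peak list, against 4.10% of all protein-coding genes. In the relaxed list made from both replicates together 7 had at least 1, against 65.1%.

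Pax proteins are transcription factors that bind DNA through the paired domain, which is built of an N-terminal and a C-terminal helical subdomain. Some also carry a homeodomain. In animals they act early in the making of sense organs, nervous tissue and excretory organs, and Pax genes can act on one another. In the worm, egl-38 is needed for the egg-laying system and hindgut, and vab-3, the Pax6 gene, for the head epidermis and nervous system.

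Chromatin immunoprecipitation with an anti-GFP antibody was followed by sequencing in whole late embryos of strain OP493, genotype unc-119(tm4063) III; wgIs493. The integrated transgene expresses NPAX-4 with GFP and FLAG at its C terminus, so npax-4 is present as transgene and as native gene. The 2 samples, replicate 1 and replicate 2, are biological replicates of this single condition, hermaphrodites taken 4 h after synchronisation by egg bleaching. Both carry the transgene and the unc-119 mutation, and all cells of the embryo are pooled. The labels do not say which sequences drive the transgene, nor its copy number. No untagged strain and no second condition was analysed here.

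The authors deposited 354 regions in a list kept under an irreproducible discovery rate (IDR) limit, 12454 in the joint relaxed list, 19207 for replicate 1 and 18799 for replicate 2. After only the strongest of overlapping regions was kept, 341, 11555, 17422 and 17000 remained. Each region carries the signal value of the authors' peak caller, whose scale is not given in the sources used here, and ranks count from the highest signal of a list. The relaxed lists hold background as well as peaks, per the deposited file descriptions, so a region in one is not by itself a peak. Read depth is unknown, since the lists give no counts.

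The following stretches carry the results and are shown 5′ to 3′ on the strand of the gene they are named after, from the WBcel235 (ce11) genome. Capitals run from 5 bases before the first to 5 bases after the last summit of the lists that overlap there. The npax-4 pair is shown because the replicates placed their strongest regions at different sites, as they also did at npax-1, pax-1, pax-2 and vab-3. The npax-2 and egl-38 stretches are shown because all 3 relaxed lists overlap there. The pax-2 stretch is shown for the highest joint signal among the 10 genes, and the vab-3 stretch for its place near an internal transcript start.
npax-4, intron, replicate 1 and joint list, chrIV:8878460-8878610, minus strand: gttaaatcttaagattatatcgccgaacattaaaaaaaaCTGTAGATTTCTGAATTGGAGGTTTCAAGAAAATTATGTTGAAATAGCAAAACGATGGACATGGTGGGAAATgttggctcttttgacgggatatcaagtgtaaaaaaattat
npax-4, upstream, replicate 2, chrIV:8880626-8880776, minus strand: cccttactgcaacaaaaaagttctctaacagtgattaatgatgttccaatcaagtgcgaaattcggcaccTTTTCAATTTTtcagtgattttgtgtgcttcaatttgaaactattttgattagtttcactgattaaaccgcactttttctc
npax-2, upstream, chrX:2152537-2152687, minus strand: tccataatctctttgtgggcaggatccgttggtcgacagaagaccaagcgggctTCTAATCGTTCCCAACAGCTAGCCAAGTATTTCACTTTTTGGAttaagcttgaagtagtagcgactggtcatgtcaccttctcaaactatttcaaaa
egl-38, intron, chrIV:10108296-10108446, minus strand: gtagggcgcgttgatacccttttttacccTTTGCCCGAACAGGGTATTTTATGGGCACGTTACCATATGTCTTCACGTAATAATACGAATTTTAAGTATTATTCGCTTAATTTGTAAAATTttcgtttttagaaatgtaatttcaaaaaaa
pax-2, upstream in osgn-1, chrIV:4208029-4208179, minus strand: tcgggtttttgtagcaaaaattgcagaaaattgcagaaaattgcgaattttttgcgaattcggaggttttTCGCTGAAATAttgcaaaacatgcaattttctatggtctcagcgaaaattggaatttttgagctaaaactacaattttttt
vab-3, intron, chrX:10516226-10516376, plus strand: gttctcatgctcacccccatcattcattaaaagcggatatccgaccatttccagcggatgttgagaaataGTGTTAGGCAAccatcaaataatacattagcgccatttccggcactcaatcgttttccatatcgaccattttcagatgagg
The GC content of these stretches was 31.1% and 33.8% at npax-4, 43.7% at npax-2, 32.5% at egl-38, 31.8% at pax-2 and 43.0% at vab-3. The median over all joint summit windows of 151 bases was 36.4%. Those windows are centred on the joint summit alone, whereas the stretches are centred between the summits of the lists that overlap there. Centred on the joint summit, the GC content was 49.0% at npax-2, 35.8% at egl-38 and 31.8% in the npax-4 intron.

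No Pax gene had a thresholded peak, 0 of 10, against 4.10% of all protein-coding genes. At that share 0.410 of 10 genes would be called, so a count of 0 could not set these genes apart. The 95% exact Clopper-Pearson interval on 0 of 10 reaches 30.8%. The interval covers counting error only. In the joint list 7 of 10 genes had a region, against 65.1% of all genes. In replicate 1 the count was 7, against 80.7%, and in replicate 2 it was 8, against 80.0%. The intervals, 34.8 to 93.3% for 7 of 10 and 44.4 to 97.5% for 8 of 10, include the background share in each case. With 10 genes they are wide, and they treat genes chosen by name as independent draws, so nothing is concluded from them. As plain counts, the numbers of genes with a region were near the background in every relaxed list.

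The 10 genes held 9 joint regions, 11 regions of replicate 1 and 17 of replicate 2. Per kb of window searched, which corrects for the length of vab-3, the median over the 10 genes was 0.0981 joint regions, against 0.100 over all genes. It was 0.0981 against 0.133 in replicate 1 and 0.149 against 0.127 in replicate 2. Pooled over the 10 genes, as all regions divided by all kb searched, the rate was below that of all genes in all 3 lists. It was 0.0773 against 0.111 in the joint list, 0.0945 against 0.169 in replicate 1 and 0.146 against 0.165 in replicate 2. In the pooled rate a long window such as that of vab-3 weighs more. Whether the Pax genes stood above or below all genes in replicate 2 thus turned on the use of the median over genes or the pooled rate. The signal of the 9 joint regions ran from 28.9 to 46.6 with a median of 39.9, against a median of 34.9 over the joint list. The lowest signal in the thresholded list was 76.4, so the strongest region at a Pax gene reached 61.0% of it. The nearest thresholded peak lay 47.3 to 652 kb from the 5′ ends of the 10 genes, with a median of 117 kb against 111 kb over all genes. The plot of shares sets the 10 genes beside all genes under each way of counting.

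**Figure D1:**
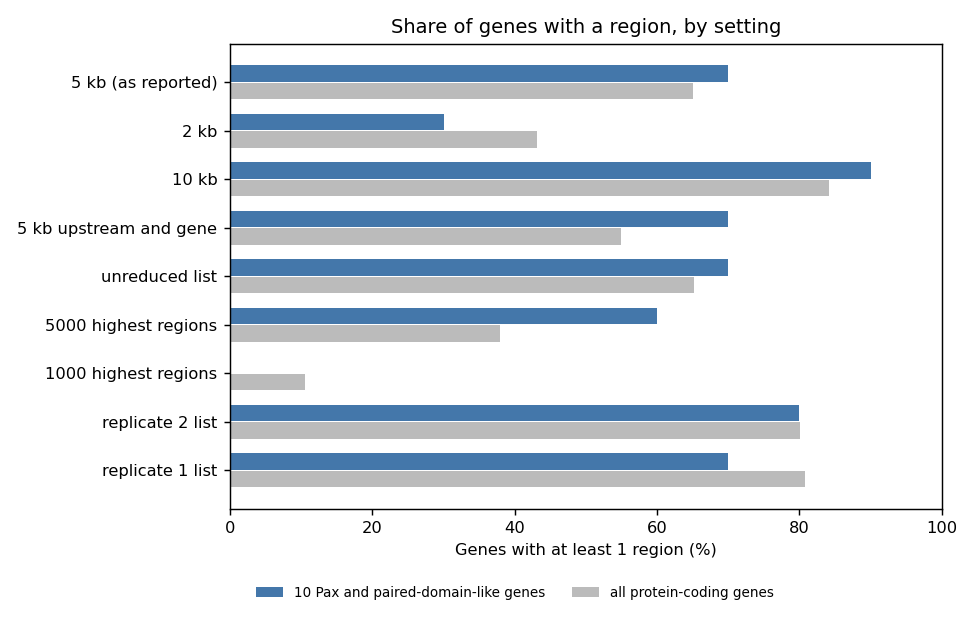
Share of genes with at least 1 region (x axis, %), for the 10 Pax and paired-domain-like genes (blue) and all 19973 protein-coding genes (grey), under each setting (y axis). With the joint list the blue bars lie on either side of the grey ones, from 0 of 10 against 10.6% for the 1000 highest regions to 9 of 10 against 84.1% within 10 kb.

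The NPAX genes are named for proteins related to the N-terminal part of the paired domain. The gene npax-4 lies on chromosome IV from 8877390 to 8879910 on the minus strand and is the source of the tagged protein. Its strongest region in replicate 1 had signal 47.0, rank 272 of 17422, with the summit 1344 bp downstream of the 5′ end in an intron of npax-4. Its single region in replicate 2 had signal 31.96, rank 616 of 17000, with the summit 791 bp upstream. The 2 sites were 2135 bp apart and did not overlap. The replicate 1 summit was also upstream of an internal transcript of npax-4, at -888 bp from the start of that transcript.

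Only 3.30% of protein-coding genes had a strongest region as high as that of npax-4 in replicate 1, and 7.00% in replicate 2. Genes that reached both levels made up 3.01% of the total. Such windows overlap between neighbouring genes, so these shares do not count separate sites. At the level of single regions the replicates differed. Of the 272 highest regions of replicate 1, 3 overlapped no region of replicate 2 (1.10%), and the npax-4 region was among them. The other two lay 95 bp upstream of pdi-2, rank 244, and 2231 bp downstream of the 5′ end of clec-80, rank 264, and were named after their values were seen. That limit is the rank of the npax-4 region itself, and the share was 9.60% among the 500 highest regions of replicate 1 and 25.3% among the 1000 highest. For replicate 2 against replicate 1 it was 13.4% and 26.6%. In the other direction, 16.4% of the 616 highest regions of replicate 2 overlapped no region of replicate 1, and 1.30% overlapped no joint region, which was the case for the npax-4 region.

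The joint list had 1 region at npax-4, with signal 41.3 and rank 2770 of 11555, its summit 61 bp from that of the strong replicate 1 region. The authors' −log10 q was 1.63 for the strong replicate 1 region, 0.958 for the replicate 2 region and 0.158 for the joint one. Replicate 1 had another region with its summit 68 bp upstream of the 5′ end, with signal 17.9 and rank 11751, and a further one in a coding exon of the neighbour C09G9.8, with signal 20.8. The 5′ ends of npax-4 and C09G9.8 face away from each other 1571 bp apart, and the replicate 2 summit lay nearly midway, 780 bp upstream of C09G9.8. All 401 words of 50 bases in the joint region at npax-4 occur once in the reference genome. The reads of the transgene and of the native gene cannot be told apart in these lists.

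The gene npax-2, on chromosome X from 2147279 to 2150106, was the clearest case of agreement in position. Its single region lay upstream in each list, with the summit 2522 bp from the 5′ end in the joint list, 2516 bp in replicate 1 and 2490 bp in replicate 2. The signal was 42.5 in the joint list, rank 2415, 19.1 in replicate 1, rank 9603, and 17.9 in replicate 2, rank 7404. The site was intergenic, within 500 bp of the noncoding RNA gene F48B9.10, and npax-2 had the nearest protein-coding 5′ end. The region was thus in the upper part of the joint list and in the middle of each replicate's list. The authors' −log10 q for it was low, at 0.178 in the joint list, 0.0592 in replicate 1 and 0.0921 in replicate 2. The highest values in those lists were 1.35, 2.27 and 1.73.

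The gene npax-1, on chromosome II from 7328736 to 7331324, had 2 joint regions. One lay 3661 bp downstream of the 5′ end, beyond the gene, with joint signal 42.4 and replicate 1 signal 25.2. The 5′ end nearest to it was that of F21D12.3, 3638 bp away. The other joint region lay 3509 bp upstream of npax-1, with joint signal 31.1 and replicate 1 signal 21.5. Replicate 2 overlapped neither, and its 3 regions there, with signals from 13.9 to 17.5, lay 628 bp or more from any joint summit. The gene npax-3, on chromosome IV from 10825870 to 10828149, had no region in any list.

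**Figure D2:**
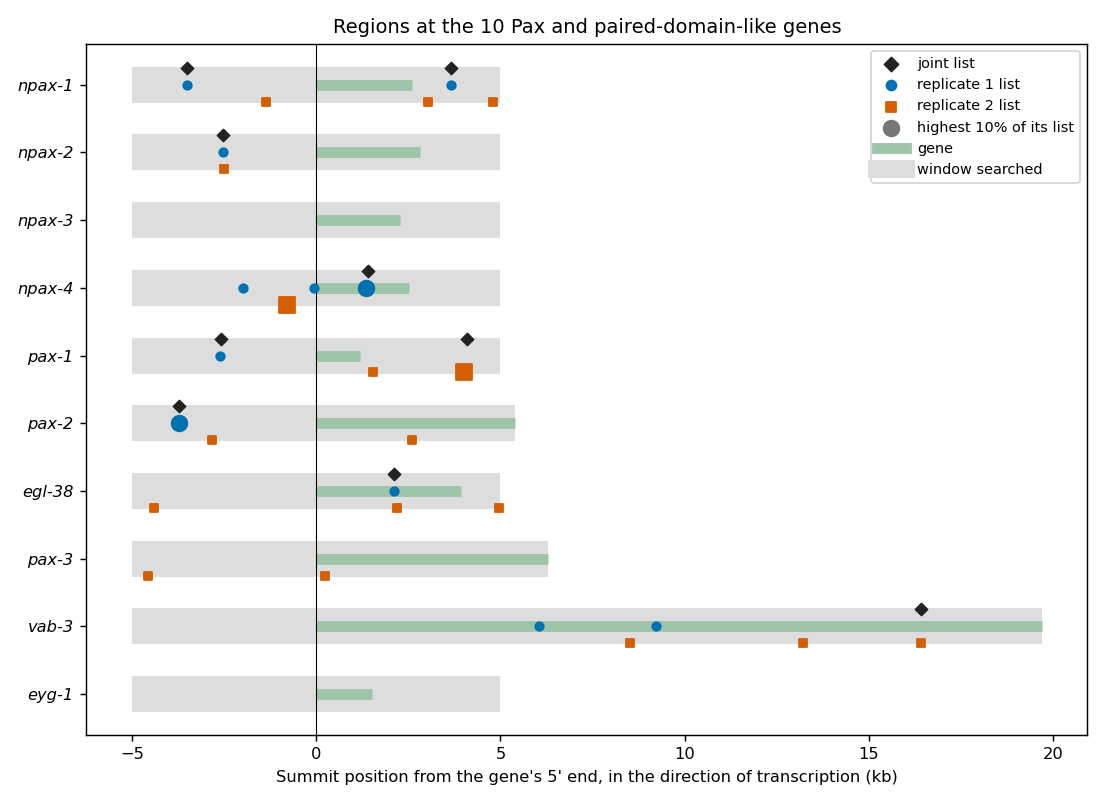
Summits of regions at the 10 genes (y axis) by distance from the gene's 5′ end in kb (x axis), for the joint list (black diamonds), replicate 1 (blue circles) and replicate 2 (orange squares), with genes in green, searched windows in grey and large symbols for the highest 10% of a list. The large npax-4 symbols of the replicates stand 2135 bp apart, while at npax-2 and egl-38 all 3 lists fall together.

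The worm genes pax-2 and egl-38 are both of the Pax2/5/8 group and act together in cell survival. At egl-38, on chromosome IV from 10106599 to 10110517, all 3 relaxed lists had a summit in the same intron, 2107 bp downstream of the 5′ end in the joint list, 2105 bp in replicate 1 and 2186 bp in replicate 2. The signal was 39.6 in the joint list, rank 3354, 23.8 in replicate 1, rank 4060, and 20.7 in replicate 2, rank 4109. The authors' −log10 q was low here too, at 0.119, 0.135 and 0.187 in the same order. Replicate 2 had 2 further regions at egl-38, with signals 16.2 and 14.4, that no other list had. The first lay in an intron of dis-3, and the second lay 512 bp upstream of C04G2.10. Of the words of 50 bases in the joint egl-38 region, 98.3% occur once in the genome.

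The gene pax-2, on chromosome IV from 4198973 to 4204375, had the strongest joint region of the 10 genes, with signal 46.6 and rank 1567. It lay 3729 bp upstream, in an intron of osgn-1, whose 5′ end was nearer to it at 716 bp. In replicate 1 the same summit had signal 37.8 and rank 452, and 5.24% of genes had a strongest region as high. Replicate 2 had no region there. Its 2 regions at pax-2 had signals 17.03, in an intron of pax-2, and 14.5, with the summit 912 bp from that of replicate 1. The weaker of them lay 196 bp upstream of osgn-1. Of the replicate lists, only that of replicate 1 thus held the Pax gene region of highest joint signal.

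The gene pax-1, a member of the Pax1/9 group on chromosome V from 8224934 to 8226116, had 2 joint regions, both in introns of other genes and each within 500 bp of a small nucleolar RNA gene. The region in rol-3, beside C16D9.11, had joint signal 39.9 and replicate 2 signal 26.7, rank 1283, with none in replicate 1. The region in air-1, which encodes an Aurora kinase, lay beside K07C11.11 and K07C11.12 and had joint signal 28.9 and replicate 1 signal 24.9, with none in replicate 2. Neither region had the pax-1 5′ end as its nearest. Pax3/7-type pax-3, on chromosome II from 10146570 to 10152865, had regions in replicate 2 alone. One, with signal 19.3 and rank 5485, had its summit 240 bp downstream of the 5′ end in the 5′ UTR of pax-3, and the other, with signal 13.5, lay in a coding exon of F27E5.3.

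The gene vab-3 is the longest of the 10, on chromosome X from 10499890 to 10519580, and some of its transcripts start inside it and encode proteins without the paired domain. Its single joint region had signal 30.3 and rank 9657 of 11555. The summit was 16411 bp from the 5′ end of the gene but 298 bp downstream of the start of an internal transcript. Which protein that transcript encodes was not examined. The nearest 5′ end of a protein-coding gene was that of F14F3.4, 5112 bp from the summit. Replicate 2 had a region at the same summit, with signal 20.4 and rank 4431, and replicate 1 had none. Replicate 1 had 2 other regions at vab-3, with signals 19.2 and 16.4, the second 50 bp from the start of another transcript. Replicate 2 had 2 others, with signals 17.1 and 15.9. None of these overlapped between the replicates. The gene eyg-1, named after the eyegone gene of Drosophila, lies on chromosome II from 9826448 to 9827952 and had no region in any list. Genes with none in any list, here npax-3 and eyg-1, made up 7.06% of all protein-coding genes.

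**Figure D3:**
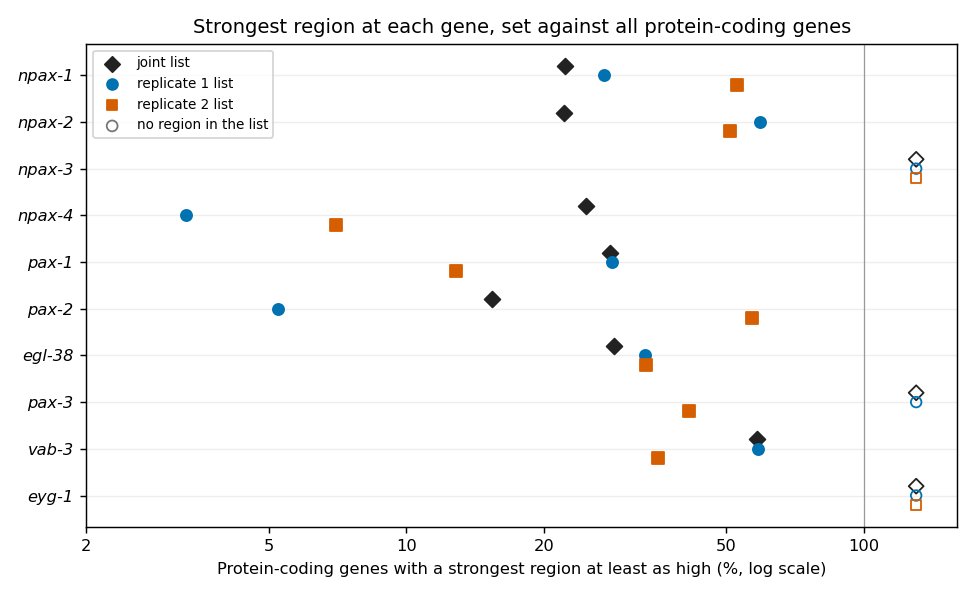
Share of protein-coding genes whose strongest region in a list is at least as high (x axis, %, log scale) for each of the 10 genes (y axis), by list, with open symbols at the right where the list had no region. For npax-4 the shares are 3.30% in replicate 1 and 7.00% in replicate 2, and for pax-2 they are 5.24% and 56.9%.

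Few regions at these genes overlapped between the replicates. Of 9 joint regions, 7 overlapped a region of replicate 1, against 75.2% of all joint regions, and 4 a region of replicate 2, against 69.0%. None lacked a region in both, against 2.59%. In both replicates there were 2, those at npax-2 and egl-38, against 46.7% of all joint regions. Of the 11 regions of replicate 1, 2 overlapped a region of replicate 2, against 35.3% of all regions of replicate 1, and of the 17 of replicate 2, 2 overlapped one of replicate 1, against 36.2%. Genes with a joint region present in both replicates were 2 of 10, against 40.0% of all genes, whereas 7 of 10 had some region in each replicate, against 68.0%. The joint list was made from the same reads as the replicate lists, so these overlaps describe the lists and are no independent check, and with counts this small the differences from the background shares were not tested.

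The 9 joint summits were in introns in 6 cases and between genes in 3, and none was in a coding exon. Over the joint list 40.4% of summits were intronic, 42.4% intergenic and 12.1% in coding exons. Within the Pax gene itself lay 3 of the 9, at npax-4, egl-38 and vab-3, and for 4 of the 9 a Pax gene had the nearest protein-coding 5′ end. None was within 500 bp of the 5′ end of the gene, and the nearest, at npax-4, was 1405 bp away. A noncoding gene lay within 500 bp of 4 of the 9 summits, against 16.2% of all joint summits. These were F48B9.10 near npax-2, F14F3.11 in vab-3 and the small nucleolar RNA genes near pax-1.

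Sequences were searched on both strands for TCACGC, part of the sequence that paired domains bind, and for its inner letters CACGC. A window of 151 bases around the summit held TCACGC in 0 of the 9 joint regions, against 2.95% of all joint windows. It held CACGC in 1, in air-1 near pax-1, against 11.7%. Among the 28 regions of the replicates, TCACGC was present in 2, both from replicate 2, where 2.95% of all windows held it (2.49% in replicate 1). They are shown with 10 bases on each side and the word in capitals.
pax-1, coding exon of K07C11.10, chrV:8226454-8226479, plus strand: ctccatctgcTCACGCtgcattttct
pax-3, 5′ UTR, chrII:10146753-10146778, plus strand: ccttaagtttTCACGCtatatacctg
The word lay 14 bp from the summit near pax-1 and 45 bp from the summit at pax-3. The pax-1 region had signal 13.9 and rank 15784 of 17000, near the end of its list. Promoters, taken as 250 bases before to 50 after the 5′ end, held TCACGC in 0 of 10 genes, against 5.53% of all promoters. With 500 bases before to 100 after, 1 of 10 held it, that of pax-1, against 10.0%. The promoters of 250 bases before to 50 after the 5′ end held CACGC in 2 of 10, npax-4 and pax-3, against 19.1%. These matches are shown in the same way.
npax-4, 161 bp upstream, chrIV:8880059-8880083, minus strand: ggattgccgcCACGCttcttcttcc
pax-3, 181 bp upstream, chrII:10146377-10146401, plus strand: gcaagatccgCACGCtcctagatgt
A match describes these letters in the reference and is not by itself a binding site.

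Among the proteins of the 10 genes, translated from the annotated coding exons, the NPAX proteins were the shortest by longest isoform, without a clear gap to the others. The NPAX proteins had 176 residues for NPAX-1, 233 for NPAX-2, 205 for NPAX-3 and 202 for NPAX-4. The others ran from 257 residues in PAX-1 to 455 in the longest isoform of VAB-3. Residues 80 to 137 of NPAX-4 aligned with residues 18 to 75 of PAX-3, with 29 of 58 columns identical, and with residues 34 to 91 of EGL-38 at 41.4% identity. The highest alignment score of NPAX-4 was with NPAX-1, at 39.6% identity over 101 columns. With EYG-1 the best stretch was 10 columns long, too short to compare. PAX-2 and EGL-38 shared 92.5% of 268 columns, and had the highest alignment score of all pairs. Their genes did not share a place of strongest joint signal, which lay 3729 bp upstream of pax-2 and in an intron of egl-38.

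**Figure D4:**
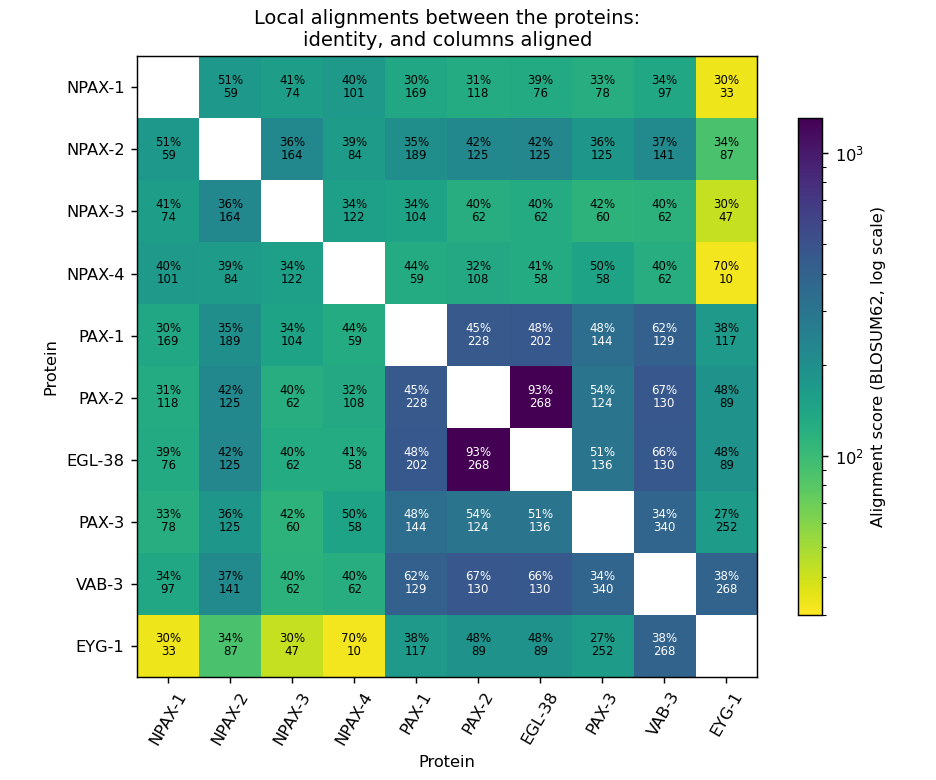
Local alignments of the 10 proteins (both axes), coloured by BLOSUM62 score on a log scale, with percent identity above the number of aligned columns. PAX-2 and EGL-38 stand out with 92.5% over 268 columns, and EYG-1 aligns with NPAX-4 over 10 columns.

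Genes related by class or by pathway were counted in the same way. Paired-class homeobox genes that lack a paired domain numbered 11, of which 0 had a thresholded peak, 8 a joint region, 9 a region of replicate 1 and 8 a region of replicate 2. The strongest were at ceh-17, with signal 65.8 and rank 439, at ceh-8, with 52.5 and rank 923, and at ttx-1, with 45.6 and rank 1733. The ceh-17 region lay 1899 bp upstream, in an intron of col-52, and had signal 42.4 in replicate 1 and 21.9 in replicate 2. The ceh-8 region lay 3796 bp upstream, in an intron of fitm-2, whose 5′ end was nearer. Genes known to act with or downstream of Pax genes in worms, and the sine oculis-type and Eya partners, numbered 9, of which 0 had a thresholded peak, 7 a joint region, 7 a region of replicate 1 and 8 a region of replicate 2. The strongest were at eya-1, a transcriptional cofactor gene, with signal 50.3, at the cell survival gene ced-9 with 46.2, and at the integrin gene ina-1 with 40.5. The eya-1 region lay 3793 bp upstream, in an intron of clec-114, whose 5′ end was nearer. The ced-9 region had signal 33.5 in replicate 1 and 32.3 in replicate 2, but lay in an intron of mev-1, whose 5′ end was nearer. All 3 strongest regions named in each list overlapped a region of both replicates. Other joint regions of these related genes, such as that at alr-1, overlapped a region of a single replicate. Among the Pax gene regions the strongest, at pax-2, overlapped one of replicate 1 only, and the next, at npax-2, overlapped both. Over the whole joint list 46.7% of regions overlapped both. The named regions were picked by signal in the joint list, which was made from the same reads as the replicate lists. Joint regions of like rank were not compared, so no contrast between the related genes and the Pax genes is drawn from these overlaps. Per kb of window the median joint count was 0.100 for the paired-class homeobox genes and 0.200 for the partners and targets, against 0.0981 for the Pax genes and 0.100 for all genes. The counts of genes with a region lay near the background shares of 4.10% for thresholded peaks, 65.1% for the joint list, 80.7% for replicate 1 and 80.0% for replicate 2.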

How the data were processed

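Tagged NPAX-4 was measured by ChIP-seq in 2 replicates, and the 4 region lists on ce11 were used. Per the deposited file descriptions, the thresholded list was derived from relaxed lists, made for each replicate and for both together. The aligner, the peak caller and its thresholds were not given in the sources used here. The authors deposited a signal value, a −log10 q value and a summit offset per region. The signal served to describe and rank regions within a list, and the −log10 q was printed for npax-4, npax-2 and egl-38 only.

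Overlapping regions were reduced to the strongest. The genome was WBcel235 with Ensembl release 115, the same assembly as ce11. Coordinates are 1-based. Regions were given to a gene by their summit, and all nuclear protein-coding genes served as background in place of random genes. No significance test was run, since there is 1 condition. Promoters were read from the genome and proteins translated from it, as no sequence tables were at hand. Proteins were aligned with BLOSUM62, gap opening 11 and extension 1. The gene counting was checked on simulated data. Biopython 1.88 aligned the proteins, pandas 2.3.3 and numpy 2.4.6 handled tables, scipy 1.17.1 gave intervals, and matplotlib 3.10.9 drew figures, under Python 3.11.15. The genes, lists and settings were chosen with earlier results of these data known. All 10 genes are named, with neighbours of some of their regions and the 3 related genes of highest signal per list. The ce10 lists were not used.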

Additional observations from a re-analysis of the deposited data

How the results depend on the processing

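Thresholded peaks numbered 0 within 2 kb, within 10 kb, upstream and gene alone, and without reduction. The share of all genes with a thresholded peak was computed for the main setting only, at 4.10%. Within 2 kb, 3 genes had 3 joint regions (43.2% of all genes had one) and the median per kb was 0. Within 10 kb, 9 genes had 17 joint regions (84.1% of all genes had one). With upstream and gene alone, 7 genes had 7 joint regions (54.9% of all genes had one). Among the 1000 highest joint regions, 0 genes had 0 regions and the median was 0 (10.6% of all genes had one). Among the 5000 highest, 6 genes had one, against 37.99%. With the list of a single replicate in place of the joint list, 7 to 8 genes had 11 to 17 regions and a median of 0.0981 to 0.149 per kb. Without replicate 1 there were 17, over 1.5 times the 9 of the joint list. The 2 regions found in both replicates stayed 2 with an overlap of 50% of the shorter region and with summits within 100 bp. TCACGC was in 1 promoter, against 10.0% of all, when 500 bases before to 100 after the 5′ end were searched, and CACGC was in 2 promoters and 1 summit window. Depth is unknown, so absence from a list cannot be told apart from too few reads.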
